A study of Oryza sativa with 6 samples.

Results

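Transcripts for ethylene synthesis, methionine salvage and ethylene perception were described in young rice leaves, for 8 of the 17905 genes that had a probe set of their own on the Affymetrix rice genome array. The genes were the synthesis genes ACS1, ACS2 and ACO1, the salvage gene ARD1, the receptor genes ETR2, ERS1 and ERS2, and EIN2, which carries the signal onward. They were found by symbol or synonym in the gene table and had 10 of the 22436 probe sets that list 1 gene. The set was chosen by what had been measured on these same arrays, so the differences between RNAi and control leaves below are given as descriptions, without p-values for these 8 genes.

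All plants were of the indica variety Minghui63. The control group was 3 arrays from wild-type plants. The RNAi group was 3 arrays from plants carrying a hairpin construct against OsSRT1, a sirtuin-type deacetylase gene, built from 412 bp of its 3' untranslated region as an inverted repeat. The sources used here do not give the promoter of the hairpin. The titles name the RNAi samples as transgenic lines LM1, LM2 and LM3, and these numbers serve as replicate numbers 1, 2 and 3. Seedlings were grown on a nutrient medium to 11 days, and leaves were collected while the RNAi plants were still free of lesions. The comparison asked which transcripts differed at that stage.

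Ethylene is a gaseous plant hormone made from methionine. ACC synthase (ACS) turns S-adenosylmethionine into ACC and ACC oxidase (ACO) turns ACC into ethylene, while the sulphur-containing by-product returns to methionine through a salvage cycle in which acireductone dioxygenase (ARD) acts late. Receptors of the ETR and ERS type in the endoplasmic reticulum hold the response off until they bind ethylene, after which EIN2 passes the signal to EIN3-like transcription factors. In rice the hormone is best known for elongation growth under submergence.

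The deposited arrays were on different scales, with control 3 at a trimmed mean of 500.08 and the other arrays between 99.859 and 117.82, so each array was scaled to a common trimmed mean before any comparison. All control arrays shared 1 hybridization time entry and all RNAi arrays a later one, so this batch and the group cannot be told apart. Probe sets named for OsSRT1 numbered 0 in the annotation used, and the hairpin's target was not checked here. Leaf markers (RBCS, RCA, CAB2R and LHCP) had 10 tested probe sets at 1860 to 44136 scaled signal, and RBCS1 lay below the filter on low signal. All 10 had a lower mean in RNAi, with log2 differences of -0.38 to -0.02 and 0 called, and 1 of CAB2R, at 25093 to 31497 against 18535 to 24568, separated the groups. The 12 leaf probe sets summed to 260215 to 299685 in the controls and 240208 to 274915 in RNAi.

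Root markers went both ways. LSI1 had 1573, 1794 and 1600 in the controls and 842, 1203 and 1396 in RNAi, a separation with a log2 difference of -0.55 that was not called. PHT1;11 had 25.3, 28.7 and 17.7 against 321, 220 and 318 at the probe set that was called, and 49.9, 2.1 and 21.7 against 131, 102 and 68.4 at another that separated the groups without a call. LSI2 stayed between 1.16 and 9.49. The 9 root probe sets summed to 1770 to 1916 in the controls and 1394 to 1863 in RNAi, mostly LSI1. The 13 seed marker probe sets summed to 1577 to 1703 and 1540 to 1727, most of it from GLUA2. The groups overlapped in all 3 sums, and the part of these marker differences in the results below was not tested.

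Between RNAi and control leaves, ACO1 and 1 probe set of the ARD1 record rose, and the other 7 tested probe sets did not pass. Calls were made with limma at a Benjamini-Hochberg adjusted p of 0.05 over all 28597 probe sets above the signal filter, of which 1.09% were called higher and 1.01% lower in RNAi. Of the 10 probe sets 9 were above the filter, 2 of them were called higher and 0 lower, and 6 had a higher and 3 a lower mean in RNAi. Their median log2 difference was 0.30, against 0.03 over all tested probe sets. The RNAi values lay wholly outside the control range at 3 of the 9, all higher, and such separation was found at 22.4% of all tested probe sets. Because the genes were chosen with this contrast known, nothing is read from these shares. In whole leaf tissue a change in the number of cells that hold a transcript and a change in its amount per cell cannot be told apart.

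**Figure D1:**
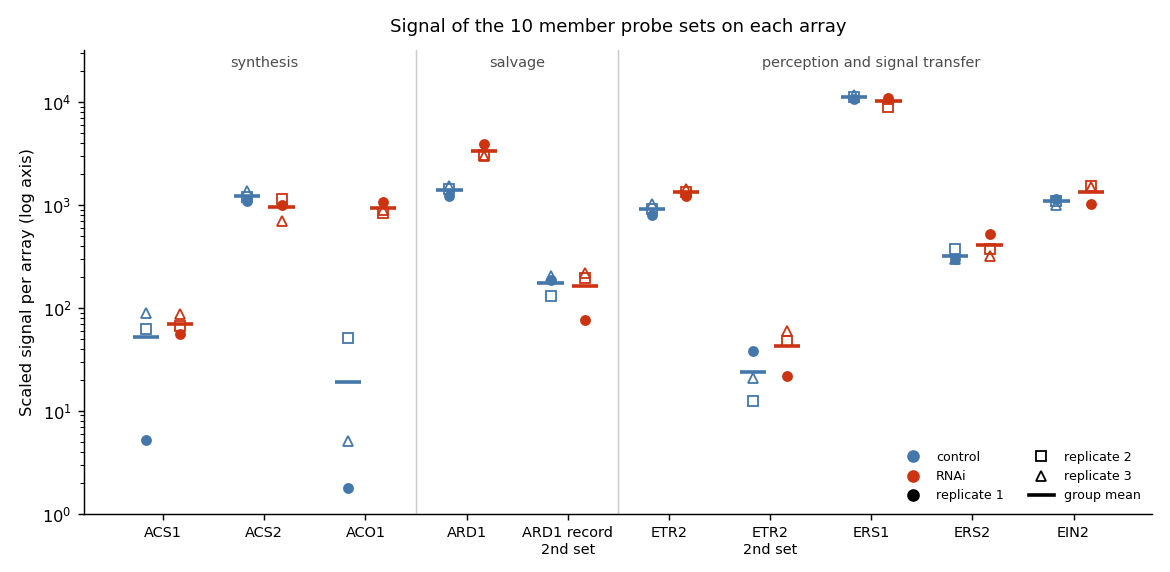
Scaled signal (log axis) of the 10 probe sets on each of 6 arrays, control in blue and RNAi in red, with the marker shape giving the replicate and the bar the group mean. ACO1 goes from 1.78 to 50.7 in the controls to 834 to 1056 in RNAi, ARD1 from 1230 to 1534 to 2989 to 3916, and ETR2 separates the groups by a narrow gap.

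The last step of synthesis showed the widest gap. ACO1 (LOC4347225, probe set Os.12201.2.S1_at), which encodes the enzyme that releases ethylene, had scaled signals of 1.78, 50.7 and 5.05 in control 1, 2 and 3 and of 1056, 834 and 895 in RNAi 1, 2 and 3. All RNAi arrays were far above all control arrays, and the lowest RNAi value was 16.5 times the highest control value. The mean was 19.2 ± 27.4 (SD, n = 3) in the controls and 929 ± 115 in RNAi, a log2 difference of 5.01 ± 0.45 (SE) after 16 was added to each signal. The controls scattered widely relative to their mean (coefficient of variation 143%), and the RNAi arrays little (12.3%).

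The spread of the controls came from control 2, and without that array the log2 difference of ACO1 was 5.60. No detection call was used. Array medians were 40.16 to 46.13, and control 1 and 3 lay near the bottom of the scale. Control 2, at 50.7, lay a little above its array median of 46.13. The size of the log2 difference depended on the amount added before taking logs: it was 6.60 with 1 added and 3.62 with 64 added. On the signals as deposited it was 3.45, in a setting where the median of all tested probe sets was itself shifted to -0.52. ACO1 passed in 16 of 16 alternative settings, 6 of which left out 1 array. Its mean log2 signal was 4.87 in the controls and 9.88 in RNAi, while the lowest mean tested was 5.703. ACO1 thus cleared the filter through its RNAi arrays. The settings also reuse the same arrays, so these passes are no separate support for the rise.

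The ACC synthase genes, whose enzymes supply the substrate of ACO1, gave values on both sides of 0. ACS1 (Os.53146.1.S1_at) had 5.2, 62.3 and 90 in the controls and 56.3, 65.9 and 87.2 in RNAi. The RNAi values all fell inside the control range, which was wide because control 1 was low. Group means were 52.5 ± 43.2 and 69.8 ± 15.8, with a log2 difference of 0.60 ± 0.56 that became -0.10 without control 1.

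ACS2 (Os.49507.1.S1_at) was well above the floor, with 1097, 1203 and 1369 in the controls and 1000, 1145 and 693 in RNAi. The groups overlapped, since RNAi 2 exceeded control 1, and RNAi 3 was the lowest array. The means were 1223 ± 137 and 946 ± 231, a log2 difference of -0.39 ± 0.20. It ranged from -0.54 to -0.18 as single arrays were left out, lower in RNAi each time and past the threshold in 0 of 6.

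As a class, synthesis was higher on every RNAi array, and this rested on ACO1. The mean of log2 signal minus each probe set's control mean was -0.76, 0.55 and 0.20 in the controls and 1.76, 1.77 and 1.68 in RNAi. Without ACO1, a choice made after seeing the data, the ACS genes alone had -0.78, 0.23 and 0.54 against 0.04, 0.23 and 0.04. The mean difference went from 1.74 to 0.10 and the groups then overlapped.

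**Figure D2:**
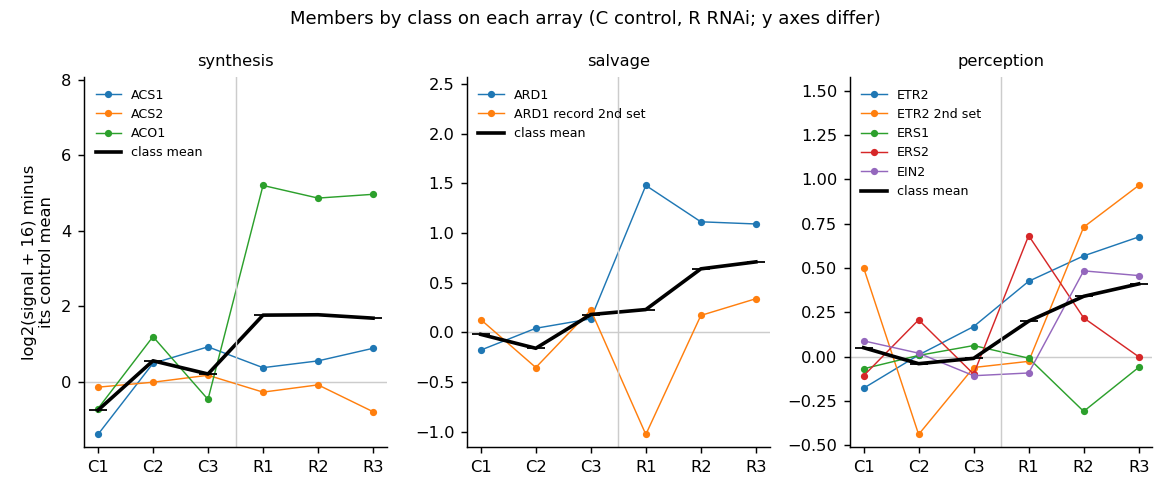
Log2(signal + 16) minus the control mean of each probe set, on 3 control (C1 to C3) and 3 RNAi (R1 to R3) arrays, with the class mean in black; lines only join the values of 1 probe set, since replicates have no order. ACO1 alone lifts the synthesis mean to 1.68 to 1.77 on the RNAi arrays, the ARD1 probe sets part from each other on R1, and the perception mean lies at 0.20 to 0.41.

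In methionine salvage the ARD1 record had probe sets that differed from each other. ARD1 encodes an acireductone dioxygenase and is also listed as SIP2 and OsIDI1. The probe set Os.4766.1.S1_at had 1230, 1435 and 1534 in the controls and 3916, 3035 and 2989 in RNAi. Every RNAi array was above every control array, by 1.95 times at the nearest, and RNAi 1 was the highest.

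The means of that probe set were 1400 ± 155 and 3313 ± 523, which is 2.37 times as high in RNAi and a log2 difference of 1.23 ± 0.15. Leaving out single arrays gave 1.10 to 1.30, past the threshold in 6 of 6. It passed in 15 of 16 alternative settings. The exception was the signals as deposited, where the difference was 0.57, or 1.10 above the median of all tested probe sets. All settings reuse the same arrays, so these passes are no separate support for the rise.

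The other ARD1 probe set, Os.10942.1.S1_a_at, had 188, 130 and 202 in the controls and 75.5, 194 and 220 in RNAi. The groups overlapped, and RNAi 1, the highest array at Os.4766.1.S1_at, was the lowest here. Its means were 173 ± 38.4 and 163 ± 76.9, with a log2 difference of -0.17 ± 0.37 that became 0.25 without RNAi 1. After centring each probe set on its control mean, Os.4766.1.S1_at minus this one gave -0.31, 0.40 and -0.09 in the controls and 2.51, 0.94 and 0.75 in RNAi.

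The gene table types this record (LOC4348646) as a transcribed pseudogene and joins ARD1 names with the heat shock factor names HSFA2C, HSF6 and HSF25. The next protein-coding gene in the same table carries the symbol ARD and has no probe set of its own here. Which product each of the probe sets reads was not tested, so the rise is given as that of Os.4766.1.S1_at. As a class of these probe sets, salvage had -0.02, -0.16 and 0.18 in the controls and 0.23, 0.64 and 0.71 in RNAi, a mean difference of 0.53, and the nearest arrays, control 3 and RNAi 1, lay close together.

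Among the receptor genes ETR2 was the one whose groups separated, and none passed. ETR2 (Os.14934.1.S1_at), a receptor of the ETR type, had 791, 903 and 1011 in the controls and 1210, 1338 and 1442 in RNAi. The lowest RNAi array was 1.2 times the highest control array. The means were 902 ± 110 and 1330 ± 116, a log2 difference of 0.56 ± 0.14.

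ETR2 passed in 0 of 16 alternative settings, with 0.47 to 0.64 as single arrays were left out. It was 0.55 with equal array medians and 0.53 with quantile normalization. On the signals as deposited it was -0.09, where the median of all tested probe sets was -0.52, which is 0.43 above that median. The other ETR2 probe set, Os.14934.2.S1_at, was below the filter, with 38.5, 12.4 and 20.9 in the controls and 21.8, 47.9 and 59.2 in RNAi. Its groups overlapped, and it was not tested.

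ERS1 (Os.1377.1.S1_at), a receptor of the ERS type, had 10576, 11143 and 11583 in the controls and 11024, 8951 and 10634 in RNAi. The groups overlapped, with a mean of 11101 ± 505 in the controls and 10203 ± 1102 in RNAi. The log2 difference was -0.13 ± 0.10 and ran from -0.19 to -0.03 as single arrays were left out.

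ERS2 (Os.7454.1.S1_a_at), the other ERS-type receptor, had 295, 371 and 297 in the controls and 522, 374 and 319 in RNAi. RNAi 1 stood above the rest, and the remaining RNAi arrays lay at or near the control range. The log2 difference was 0.30 ± 0.21, and 0.11 without RNAi 1.

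EIN2 (Os.27778.1.S1_a_at), the membrane protein downstream of the receptors, had 1153, 1098 and 1004 in the controls and 1015, 1521 and 1493 in RNAi. Here RNAi 1 lay inside the control range while RNAi 2 and 3 were above it. The means were 1085 ± 75.0 and 1343 ± 284, a log2 difference of 0.28 ± 0.18. It was 0.47 without RNAi 1 and did not pass there either.

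As a class, perception had a slightly higher mean on every RNAi array, with 0.05, -0.04 and -0.01 in the controls and 0.20, 0.34 and 0.41 in RNAi. This mean over 5 probe sets counts ETR2 at both of its probe sets. Its members did not all move with it: ERS1 was below its control mean on every RNAi array. EIN2 and the other ETR2 probe set were below theirs on RNAi 1. The mean difference was 0.31, and it was 0.25 without the ETR2 probe set below the filter, a choice made after seeing the data. With that probe set left out the RNAi arrays had 0.25, 0.24 and 0.27, although their highest member was ERS2 on RNAi 1 and ETR2 on RNAi 3. The mean difference was also 0.31 with equal array medians and with quantile normalization. On the signals as deposited it was -0.30, where the median of all tested probe sets was -0.52.

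RNAi 1 was the highest or the lowest RNAi array at 9 of the 10 probe sets, 4 times the highest and 5 times the lowest. Over all tested probe sets RNAi 1 was at an end of its group in 76.0%, and among the tested members in 8 of 9. It was the highest at ACO1, ARD1 (Os.4766.1.S1_at), ERS1 and ERS2. Without RNAi 1 the log2 difference of ACO1 was 4.91 and that of Os.4766.1.S1_at 1.10, both called. Both belong to members chosen with this contrast known, and the filter used all arrays, so these calls are no separate support.

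A wider list of ethylene and methionine salvage genes was matched to 25 genes by name, 2 of them without a probe set of their own. Of its 30 probe sets 26 were tested, ACO1 and ARD1 were the 2 called, both higher, and 24 did not pass, with a median log2 difference of -0.06. Both calls are of members, which were chosen with this contrast known. Over all tested probe sets 1.09% were called higher and 1.01% lower, shares that would give few or no calls among so few. Nothing about the genes beside the members is therefore read from the counts called below. Beside the 8 members it held 15 genes with 20 probe sets, of which 17 were tested and 0 called with limma, 6 higher and 11 lower in mean. Their log2 differences ran from -0.71 to 0.32 around a median of -0.09, and 1 had an unadjusted p under 0.05, as did 15.6% of all tested probe sets. The matches for RAN1, SK1 and SK2 were read after the data were seen as other products than the ones meant (RAN1 matched genes for the small GTPase Ran), and without them 13 were tested and 0 called. The RAN1 matches had log2 differences of -0.17 and -0.12, SK1 had -0.19 and SK2 had -0.26.

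**Figure D3:**
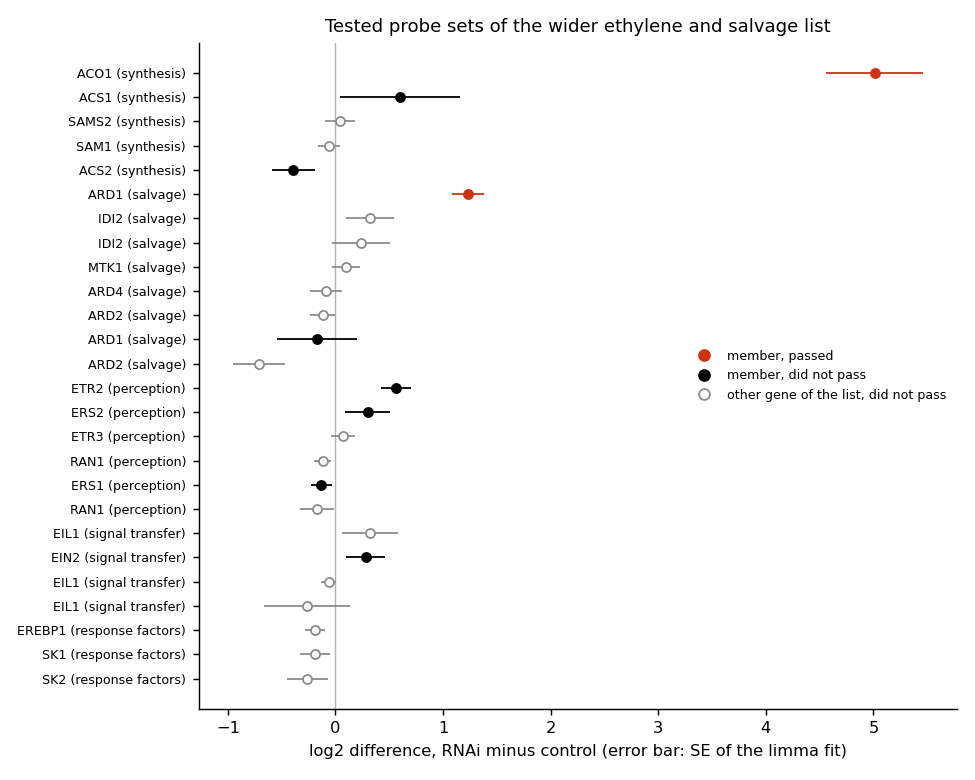
Log2 difference, RNAi minus control, with the SE of the limma fit, for the 26 tested probe sets of the wider list by role. ACO1 at 5.01 and ARD1 at 1.23 are the points past the threshold, and the open points of the genes beside the members lie between -0.71 and 0.32.

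Upstream of ACS, the S-adenosylmethionine synthetase genes SAMS2 and SAM1 were abundant and close to 0 in difference. SAM1 had 18110 to 22237 over the 6 arrays and a log2 difference of -0.06 ± 0.10 (limma, Benjamini-Hochberg adjusted p = 0.798). SAMS2 had 5543 to 7522 and 0.04 ± 0.14 (limma adjusted p = 0.92). The groups overlapped for both.

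In salvage, ARD2 and ARD4, the other dioxygenase genes, and MTK1, a methylthioribose kinase gene, did not pass. ARD2 (Os.2217.1.S1_a_at) had 5880, 6044 and 5628 in the controls and 4605, 5626 and 6073 in RNAi, a log2 difference of -0.12 ± 0.12 (limma adjusted p = 0.691). Its record also carries a heat shock factor name, HSFA2D, and its other probe set, Os.40021.1.S1_a_at, had 268, 202 and 197 against 96.5, 135 and 163. Those groups did not overlap, with RNAi lower by -0.71 ± 0.24 on the log2 scale (limma adjusted p = 0.209).

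ARD4 had 3888, 4071 and 3663 in the controls and 2915, 3890 and 4226 in RNAi, with a log2 difference of -0.09 ± 0.15 (limma adjusted p = 0.807). MTK1 had 0.10 ± 0.13 (limma adjusted p = 0.751). IDI2, named for induction by iron deficiency and known as a salvage gene, had 0.24 and 0.32 at its probe sets (limma adjusted p = 0.712 and 0.524). Among the tested salvage probe sets of the list, Os.4766.1.S1_at was the only one called.

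Of the remaining receptor genes, ETR3 had 2324, 2181 and 2594 in the controls and 2570, 2430 and 2436 in RNAi, a log2 difference of 0.07 ± 0.11 (limma adjusted p = 0.811). ETR4 was below the filter, at 2.52 to 36.9. EIL1, an EIN3-like transcription factor, was matched to 2 genes, and the most abundant of the probe sets, Os.12691.2.S1_a_at, had 19555 to 20310 in the controls and 18825 to 19180 in RNAi. That is a log2 difference of -0.06 ± 0.07 (limma adjusted p = 0.732), and the groups did not overlap.

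The other EIL1 probe sets had -0.26 ± 0.40 and 0.32 ± 0.26 (limma adjusted p = 0.798 and 0.597). EREBP1, an ethylene response element binding protein gene, had 12337 ± 887 and 10779 ± 579, a log2 difference of -0.19 ± 0.09 (limma adjusted p = 0.364). Its groups did not overlap, with RNAi lower. The other EREBP1 probe set, Os.57552.1.S1_at, was below the filter and higher in mean in RNAi, by 0.62 on the log2 scale, and its groups overlapped. Apart from SK1 and SK2, read as other products, EREBP1 alone of the response factors was tested, and it did not pass. Names such as ERF1, SUB1A and ERF922 had no match, so nothing is read about response factors as a group.

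The genes next to the members in the reference gene order were also read. Within 3 protein-coding genes on each side, 31 genes had probe sets of their own. Of their 35 probe sets 29 were tested and 0 were called with limma, with 4 at an unadjusted p under 0.05. Shares of 1.09% called higher and 1.01% called lower over all tested probe sets would give few or no calls among so few, so nothing about the neighbours is read from this count. Log2 differences ran from -0.71 to 0.77 around a median of 0.09. None of the neighbours of ETR2 had a probe set of its own.

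Near ACO1, the probe set Os.12201.1.S1_at, whose name shares a cluster number with that of ACO1, belongs to LOC4347224, at place -2 in the order. It had 17533, 17556 and 17569 in the controls and 14569, 15710 and 14973 in RNAi. All RNAi arrays were lower, by a log2 difference of -0.22 (limma adjusted p = 0.221), opposite in sign to ACO1. The next gene on the other side, PDIL5-1, of the protein disulphide isomerase type, had -0.40 (limma adjusted p = 0.687).

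Beside the ARD1 record, ARD4 is the gene after ARD, and its value of -0.09 is given above. ACA7, a calcium-transporting ATPase gene on the other side, had 345, 345 and 272 in the controls and 221, 186 and 163 in RNAi. Its groups did not overlap, with a log2 difference of -0.71 ± 0.20 (limma adjusted p = 0.125), the lowest among the neighbours of the record.

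**Figure D4:**
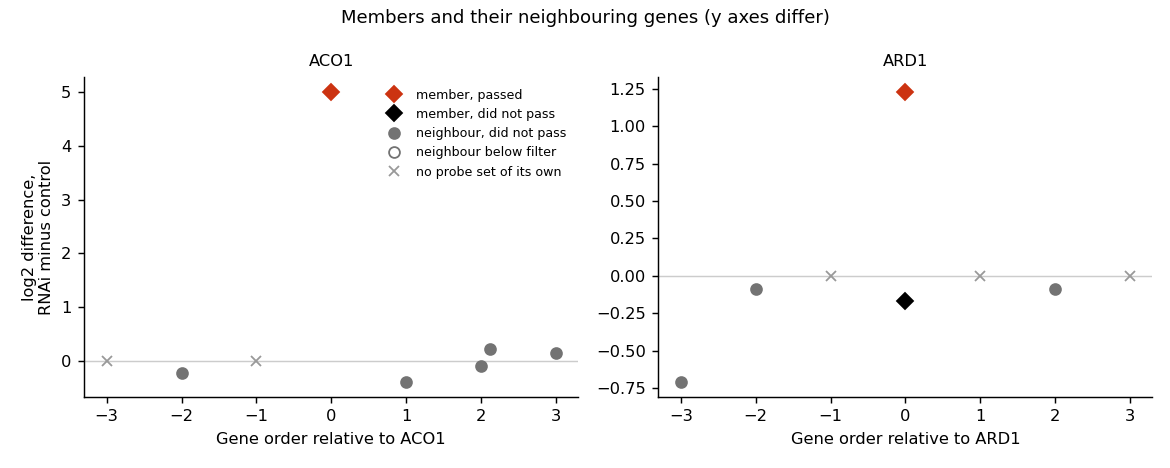
Log2 difference, RNAi minus control, of ACO1 and of the ARD1 record (diamonds) and of genes up to 3 places away in the reference order (circles); crosses mark genes with no probe set of their own and carry no value. ACO1 stands at 5.01 and its neighbours between -0.40 and 0.21, and ARD1 at 1.23 with neighbours between -0.71 and -0.09.

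The named genes whose profile over the 6 arrays lay nearest to ACO1 and to ARD1 were found by the Euclidean distance between log2 profiles, each centred on its own mean. For ACO1, among 2639 probe sets of named genes, they were JAZ2 (2.13), OsPht1;11 (2.89), RAB16B (3.31), RAB16C (3.75) and OsPM19L1 (3.86), against a length of 6.31 for the centred profile of ACO1 itself. JAZ2, a repressor of jasmonate signalling, had 3.92, 2.97 and 5.05 in the controls and 1169, 1403 and 1586 in RNAi. The ending of its probe set name allows for several genes being read, although the annotation used lists 1 gene. JAZ2 shared the near-floor controls of ACO1, with no counterpart to the higher value of control 2.

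RAB16B, a dehydrin gene, had 476, 918 and 678 in the controls and 5461, 2088 and 5262 in RNAi. Its controls were far from the floor, and RNAi 2 was the lowest RNAi array, as it was for ACO1. The distances for ACO1 were large beside those for ARD1, and no named gene came within a distance of 2 of it.

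For ARD1 (Os.4766.1.S1_at), among 2638 probe sets, the nearest were GDH (0.37), IVD (0.39), Lhs1 (0.52), RLA1 (0.52) and BGLU3 (0.54), against a profile length of 1.55. GDH, a glutamate dehydrogenase gene, had 500, 493 and 577 in the controls and 1373, 1439 and 1218 in RNAi. IVD, an isovaleryl-CoA dehydrogenase gene of leucine breakdown, had 5422, 6832 and 6546 against 15925, 11288 and 10101, with RNAi 1 the highest as for ARD1. The probe set name of IVD has the same ending as that of JAZ2. The floral MADS-box gene Lhs1 had 27.9 to 40.9 in the controls and 81.2 to 152 in RNAi and did not pass, while the other 4 were called higher. These genes were picked for likeness, so that likeness is no separate result.

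**Figure D5:**
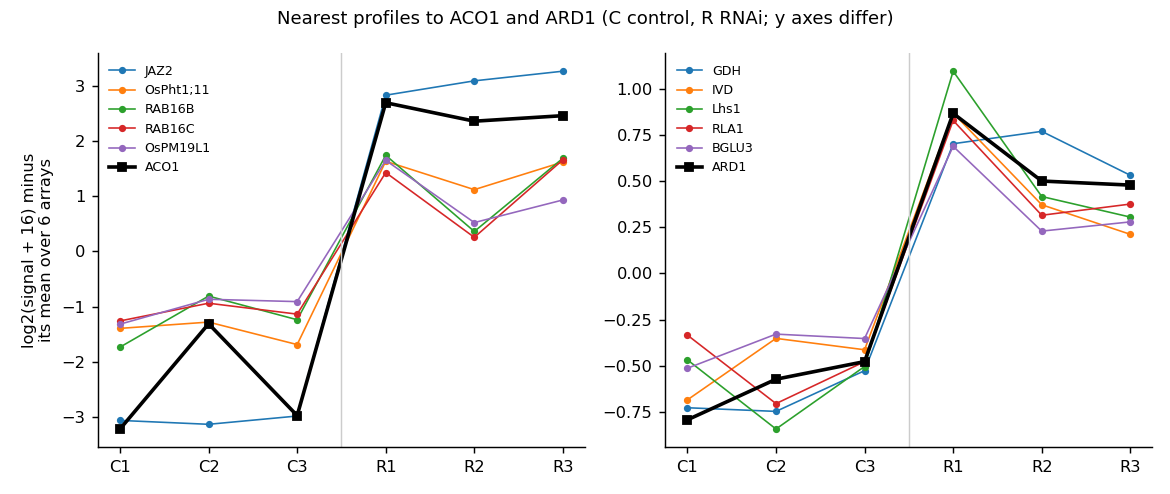
Log2(signal + 16) minus its mean over the 6 arrays for ACO1 and ARD1 (black) and the 5 named genes nearest to each in profile; lines only join the values of 1 probe set. The neighbours of ACO1 are spread at distances of 2.13 to 3.86 from it, and those of ARD1 lie within 0.37 to 0.54.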

How the data were processed

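RNA from 3 control and 3 RNAi leaf samples had been hybridised to 1 array each, with groups and numbers read from the titles. The authors deposited 1 linear intensity per probe set and array, for which the submitters' processing notes name GCOS 1.2. The method of summarising and scaling the probes was not given in the sources used. The deposited scanner and fluidics records list instrument settings of other kinds, with no expression in them. The submitters call the samples biological repeats without naming separate plants or cultures, so p-values reflect only how these samples spread, which may be technical, and the number of arrays limits their precision.

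Arrays were brought to one trimmed mean (500, with 2% left off at each end) and log2 was taken after adding 16, which understates changes at low signal. Of 57381 probe sets, 123 Affymetrix control and 64 reporter probe sets were not tested, and the lower 50% by mean log2 signal over all arrays was left out (lowest tested mean 5.703). RNAi was set against control in a two-sided limma fit (version 3.58.1 under R 4.3.3, eBayes with its trend option, Benjamini-Hochberg adjustment), which was also tested on simulated data; tables were made with Python 3.11.15.

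Probe sets were named through the platform's annotation, joined by gene ID to RefSeq genes of assembly ASM3414082v1, from a japonica rice, whose order served only to find neighbours. Of the wider list 62 names had no match.

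The members, lists and tests were chosen with earlier results of these data known. Text names all member probe sets, called genes of the wider list and up to 4 others per role, and the 5 nearest named profiles to ACO1 and ARD1; further salvage genes, ETR4 and the neighbours were added after their values were seen. Alternatives were the scaling, the amount added, the filter, eBayes without a trend, 1 probe set per gene, the replicate number as a block and leaving out each array. A block for hybridization time could not be fitted, since each time held 1 group.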

Additional observations from a re-analysis of the deposited data

How the results depend on the processing

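The call of ACO1 held in 16 of 16 alternatives and that of Os.4766.1.S1_at under the ARD1 record in 15 of 16, while the other ARD1 probe set passed in 0 of 15. ACO1 cleared the signal filter through its RNAi arrays, and all alternatives reuse the same arrays. These counts therefore show only how the calls depend on the settings. On the signals as deposited, where control 3 keeps its larger scale, 37 probe sets were called in place of 601 (64.9% of them higher against 51.9%), 1 in place of 2 of the wider list, and the mean differences were 0.74 for synthesis, -0.05 for salvage and -0.30 for perception, in place of 1.74, 0.53 and 0.31. With no filter 394 were called and with eBayes without a trend 303 (61.4% higher). Leaving out 1 array gave 233 (without control 2, 70.8% higher) to 902 (without RNAi 1); it was 355 without control 1 (61.7% higher), 334 without control 3, 358 without RNAi 2 and 369 without RNAi 3. The synthesis mean was 2.43 with 1 added, 1.17 with 64 added and 0.10 without ACO1; the cause of the other shifts was not tested. With the replicate block 424 were called, and ACO1 and Os.4766.1.S1_at still passed. Same-numbered arrays did not deviate together (correlations of -0.0452, 0.00838 and 0.00207), so no pairing by number was seen. With 3 arrays per group these correlations cannot settle whether the numbers pair the samples. Same-numbered arrays did share a fluidics module. Equal medians gave 590, quantile normalization 603, 1 added 509, 64 added 664, a 25% filter 661 and 1 probe set per gene 579. Signals near the floor, as for ACO1 in control 1 and 3, ACS1 and the other ETR2 probe set, limit the sizes given for them.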
